A study of Saccharomyces cerevisiae with 6 samples.

Results

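Ribosome assembly in budding yeast begins on the nascent ribosomal RNA precursor in the nucleolus, where factors named UTP, NOP, RRP and NOC fold, modify and cut the RNA. The small subunit processome, built around the U3 small nucleolar RNA, releases the precursor of the small subunit, and a separate set of assembly factors matures the large subunit. Their genes belong to the ribosome biogenesis regulon, which yeast is known to adjust to growth rate, nutrients and stress. All genes whose symbol is UTP, NOP, RRP or NOC followed by a number in the array's probe-to-gene table were taken, which gave 56 genes of the 5449 measured: 18 UTP, 17 NOP, 18 RRP and 3 NOC genes. By particle, 27 belong to the small subunit processome, 14 to large subunit assembly and 7 to the exosome, the complex that trims ribosomal RNA precursors and degrades nuclear RNA. The remaining 8 serve both particles or were not assigned to one: the small nucleolar ribonucleoprotein (snoRNP) core proteins, RRP5, RRP12, RRP14 and NOP13.

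The study set wild type cells, strain BY4741, against the vps1Δ mutant, strain Y05072, which lacks the dynamin-like GTPase Vps1 of vacuolar sorting and endocytosis. Each strain had 3 Affymetrix arrays of total RNA from independent biological replicates, and both strains grew in supplemented minimal medium at 30 degrees. No other allele or treatment is given in the labels. VPS1 itself read 10.32, 9.98 and 9.95 on the log2 scale in wild type replicates 1, 2 and 3 and 2.54, 2.40 and 2.23 in the deletion strain, where it was below background on every array and at least 91.5-fold lower (adjusted p = 1.65e-07). All 5 markers of the a mating type were above background on every array, with group means of 10.98 or more. The 4 markers of the alpha type were above background on every array too, with group means of at most 8.65.

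As deposited, the median gene lay 0.51 higher on the log2 scale in the deletion strain than in wild type, and 76% of all genes passed as higher. The differences below are relative to that shift, from the log2 values after quantile normalisation of the 6 arrays, called the quantile scale, where the median gene lay at -0.04. A difference is vps1 deletion minus wild type, tested with limma on 3 against 3 arrays, with p adjusted over all 5449 genes and a threshold of 0.05. An array measures the share of a transcript in the RNA, so that fewer molecules per cell and more of other RNA cannot be told apart.

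Ribosome assembly genes were slightly lower in the vps1 deletion strain relative to the shift. On the quantile scale, 52 of the 56 genes had a difference below 0, against 56.8% of all genes, and the median difference was -0.21, or 86.4% of the wild type signal. Of the 56, 7 fell, none rose and 49 did not pass, which is 12.5% falling against 6.28% of all genes, and 0 rising against 6.77%. The genes that fell were RRP6 of the exosome, UTP30, UTP8, UTP18 and NOC4 of the small subunit processome, NOC3 of large subunit assembly and NOP13. At an unadjusted limma p under 0.05 there were 17 lower and 0 higher, where 15.5% of all genes were lower. On the deposited values the direction turned for 6 of the 7, which lay above wild type by 0.03 to 0.20, while RRP6 lay at -0.16. There 26 of the 56 passed as higher, against 76% of all genes, and 0 as lower, against 0.954%. The median of the 56 genes was 0.32, which is 0.19 below the median of all genes there and 0.17 below it on the quantile scale.

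The count rested on single arrays. It was 1 without wild type replicate 2, without vps1 deletion replicate 1 and without vps1 deletion replicate 3, 1.79% of the 56 and below the 2.37%, 2.39% and 2.2% of all genes that fell in the same fits. It was 4 without wild type replicate 3, 7.14% against 4.79% of all genes. Without wild type replicate 1 it was 8, 14.3% against 6.51%, and without vps1 deletion replicate 2 it was 5, 8.93% against 3.29%. UTP30 passed in 5 of these 6 fits, RRP6 in 4, NOP13 in 3, UTP8 in 2, NOC3 in 1, and NOC4 and UTP18 in 0. All 7 stayed below 0 in each fit, which was fixed in advance because their groups did not overlap. In a fit that takes the replicate number as a block, called the blocked fit, 18 of the 56 fell and 0 rose, 32.1% falling against 16.4% of all genes, where 14.4% rose, and the 7 were among them.

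**Figure D1:**
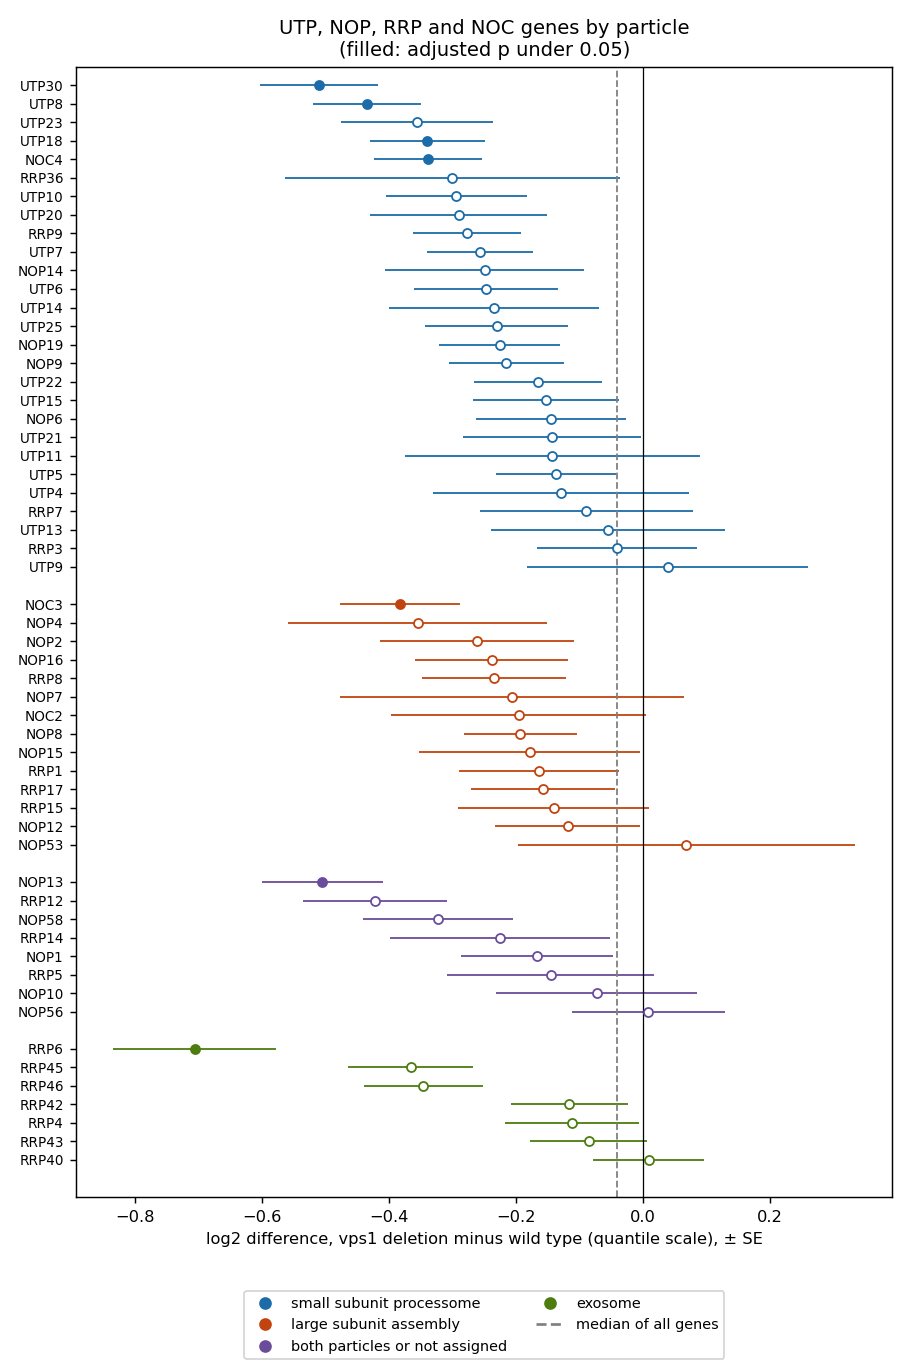
Log2 difference (vps1 deletion minus wild type, quantile scale, ± SE, 3 arrays per strain) of the 56 genes by particle, filled where the adjusted p was under 0.05, with the median of all 5449 genes dashed at -0.04. Points of 52 genes lie left of 0 on this scale, from -0.71 for RRP6 to 0.07 for NOP53, whereas on the deposited values 55 of the 56 lie above 0.

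RRP6, the nuclear exoribonuclease of the exosome, had the largest difference of the 56. It read 10.64, 10.68 and 10.36 in wild type replicates 1, 2 and 3 and 10.00, 9.88 and 9.69 in the same replicates of the deletion strain. The groups did not overlap, and replicate 3 was the lowest in both strains. RRP6 fell by 0.71 ± 0.13 (log2, SE, adjusted p = 0.0124), to 61.3% of wild type. Among the other exosome genes, the ring subunits RRP45 and RRP46 were next. RRP45 read 11.24, 11.50 and 11.43 in wild type and 11.05, 11.00 and 11.03 in the deletion strain, and RRP46 10.48, 10.47 and 10.34 against 10.18, 10.02 and 10.06. Neither pair of groups overlapped, yet the differences of -0.37 ± 0.10 (adjusted p = 0.0508) and -0.35 ± 0.09 (adjusted p = 0.0522) just missed the threshold. Both passed in the blocked fit (adjusted p = 0.0202 and 0.0170).

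The remaining exosome genes lay close to the median gene. The ring subunits RRP42 and RRP43 differed by -0.12 ± 0.09 and -0.09 ± 0.09. The cap subunits RRP4 and RRP40, which bind RNA at the entry of the barrel, differed by -0.11 ± 0.11 and 0.01 ± 0.09, and the groups of all 4 overlapped. The 7 exosome genes thus ran from -0.71 to 0.01, with a median of -0.12. Of the 7, 1 fell, 14.3% against 6.28% of all genes, and 3 fell with the block, 42.9% against 16.4%. In the list of other exosome and cofactor genes, 1 of 11 fell and none rose, 9.09% falling against 6.28% of all genes, and 4 fell with the block, 36.4% against 16.4%. Their median was -0.21, and all 11 lay below 0, where 56.8% of all genes did. PAP2, the poly(A) polymerase of the TRAMP complex that tags RNA for the nuclear exosome, fell by 0.50 ± 0.09 (adjusted p = 0.0128), a call lost without vps1 deletion replicate 3 (adjusted p = 0.0656), and lay 0.05 above wild type as deposited.

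Of the 27 small subunit processome genes, 4 fell and 23 did not pass, 14.8% falling against 6.28% of all genes. UTP30, a processome component related to the ribosomal L1 protein family, read 10.40, 10.33 and 10.37 in wild type replicates 1, 2 and 3 and 9.83, 9.77 and 9.97 in the deletion strain. UTP30 fell by 0.51 ± 0.09 (adjusted p = 0.0127), to 70.2% of wild type. UTP8, a subunit of the UTP-A complex that first binds the leading spacer of the precursor and also a factor of nuclear tRNA export, read 10.38, 10.49 and 10.43 against 9.97, 9.99 and 10.04. The highest deletion array was thus below the lowest wild type array for both genes, and UTP8 fell by 0.44 ± 0.09 (adjusted p = 0.0169). UTP18, the UTP-B subunit that docks the exosome helicase Mtr4, read 10.68, 10.78 and 10.72 against 10.29, 10.41 and 10.46 and fell by 0.34 ± 0.09 (adjusted p = 0.0491). NOC4, the partner of Nop14 in the processome, read 10.93, 10.83 and 10.91 against 10.52, 10.55 and 10.59 and fell by 0.34 ± 0.09 (adjusted p = 0.0410). Both groups were separate for each of them, and both had the adjusted p nearest to the threshold among the 7.

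Subunit values spread within the subcomplexes of the processome, and the differences between subunits were not tested. In UTP-A, UTP8 stood at -0.44, while UTP10, a large HEAT-repeat protein, lay at -0.29 ± 0.11, UTP15, UTP5 and UTP4 between -0.15 and -0.13, and UTP9 at 0.04 ± 0.22. UTP9 read 11.37, 11.95 and 12.04 in wild type and 11.49, 12.15 and 11.84 in the deletion strain, with replicate 1 the lowest in both. In UTP-B, UTP18 and UTP6 lay at -0.34 and -0.25, and the WD-repeat proteins UTP21 and UTP13 at -0.14 and -0.05. UTP-C and its associated factor held no gene that passed. RRP36 differed by -0.30 ± 0.26, UTP22 by -0.17 ± 0.10 and RRP7 by -0.09 ± 0.17. RRP36 read 9.82, 10.65 and 10.75 in wild type and 9.75, 10.24 and 10.32 in the deletion strain, so that replicate 1 lay far below the other two in both strains and made the error of this gene the largest in the processome.

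Several further processome genes passed in the blocked fit alone, where 10 of the 27 fell, 37% against 16.4% of all genes. They were RRP9, the protein specific to the U3 particle (-0.28), UTP23, a factor with a PIN-like fold (-0.36), UTP10 (-0.29), the HEAT-repeat protein UTP20 (-0.29), the WD-repeat protein UTP7 (-0.26) and UTP6 (-0.25), with block adjusted p between 0.0145 and 0.0449. The groups of all 6 did not overlap. Over the 27 processome genes, 12 had all deletion arrays below all wild type arrays, 44.4% against 19% of all genes, and 0 had them above, where 15% of all genes did. Of NOP14, UTP14, UTP25 and UTP11, none passed in either fit. The DEAD-box helicase RRP3 lay at -0.04 ± 0.13, at the level of the median gene.

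**Figure D2:**
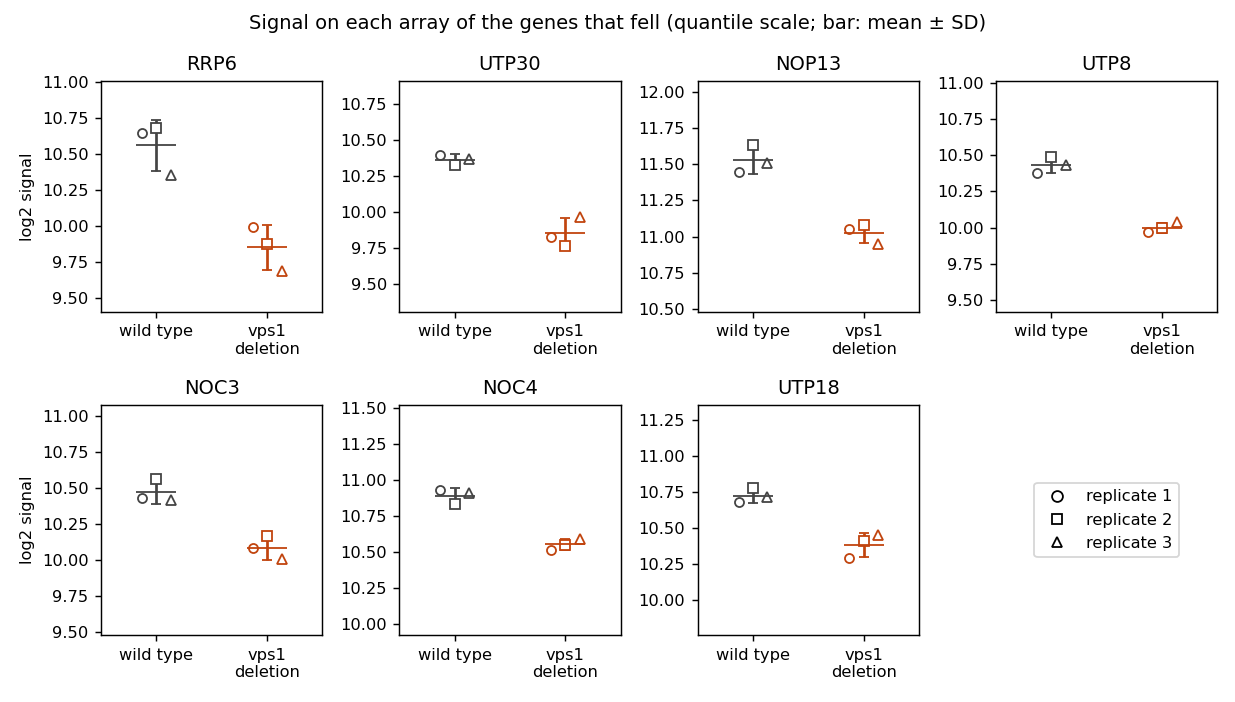
Log2 signal on each array (quantile scale) of the 7 genes that fell on that scale, with the mean and SD of 3 arrays per strain and a symbol for each replicate number; every panel spans the same number of log2 units. In each panel all 3 deletion arrays lie below all 3 wild type arrays, as they do for 19% of all genes. The 7 genes were picked by their adjusted p, which favours separate groups. On the deposited values the deletion mean of 6 of the 7, all but RRP6, lies above wild type.

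Of the 14 large subunit assembly genes, 1 fell and 13 did not pass, 7.14% falling against 6.28% of all genes. With the block 2 of the 14 fell, 14.3% and so below the 16.4% of all genes. NOC3, which with Noc2 moves large subunit precursors out of the nucleolus and also acts in replication licensing, read 10.43, 10.56 and 10.42 in wild type replicates 1, 2 and 3 and 10.08, 10.17 and 10.00 in the deletion strain. NOC3 fell by 0.38 ± 0.09 (adjusted p = 0.0381), to 76.7% of wild type, with no overlap between the strains. Its partner NOC2 read 10.86, 11.15 and 11.01 against 10.56, 11.29 and 10.58, so that deletion replicate 2 exceeded every wild type array, and differed by -0.20 ± 0.20. NOP2, the methyltransferase of the large subunit RNA, differed by -0.26 ± 0.15 and passed with the block (adjusted p = 0.0483). The RNA-binding protein NOP4 (-0.35 ± 0.20), the assembly factor NOP16 (-0.24 ± 0.12), the methyltransferase RRP8 (-0.23 ± 0.11) and NOP8 (-0.19 ± 0.09) did not pass in either fit.

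Several large subunit genes varied widely between replicates. The 4 widest SDs among the 56 on the deletion arrays were of NOP7, NOP4, NOP53 and NOC2, while on the wild type arrays RRP36 and UTP11 of the small subunit varied most. NOP7, a scaffold protein that acts with Erb1 and Ytm1, read 11.26, 11.87 and 11.35 in wild type and 11.11, 11.87 and 10.88 in the deletion strain, with replicate 2 the highest in both. NOP53, which recruits Mtr4 to large subunit precursors, read 10.87, 11.64 and 11.61 against 11.09, 11.90 and 11.33. It had the highest difference of the 56 genes, 0.07 ± 0.27, smaller than its error. Over the 14 genes, 2 had all deletion arrays below all wild type arrays, 14.3% against 19% of all genes.

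In their median difference, the small and large subunit genes differed by less than the spread between arrays. Their medians were -0.23 and -0.19 on the quantile scale, 0.31 and 0.34 as deposited. The small minus large difference of -0.04 compares with an SD of 0.06 between arrays of a strain and ranged from -0.05 to 0.01 when single arrays were left out. Their medians lay 0.19 and 0.15 below the median of all genes on the quantile scale and 0.19 and 0.17 below it as deposited. Of the small and large subunit genes 14.8% and 7.14% fell, and 37% and 14.3% fell with the block. All deletion arrays were below all wild type arrays in 44.4% and 14.3%. Whether these shares differ between the particles was not tested.

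Among the genes that serve both particles or were not assigned to one, NOP13 alone fell. This nucleolar protein with RNA recognition motifs, whose particle was not assigned here, read 11.45, 11.64 and 11.51 in wild type and 11.05, 11.08 and 10.95 in the deletion strain, a fall by 0.51 ± 0.09 (adjusted p = 0.0141). RRP12, a HEAT-repeat factor for export of both subunits, read 11.45, 11.66 and 11.49 against 11.04, 11.29 and 11.01. Its groups were separate, and the difference of -0.42 ± 0.11 just missed the threshold (adjusted p = 0.0503) but passed with the block (adjusted p = 0.0070). RRP5 and RRP14, needed for both particles, differed by -0.15 ± 0.16 and -0.23 ± 0.17. Of the 8 genes of this class 1 fell, 12.5% against 6.28% of all genes, and 3 fell with the block, 37.5% against 16.4%.

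The core proteins of box C/D snoRNPs, which guide ribose methylation and include the U3 particle, did not pass without the block, and the differences between them were not tested. NOP58 read 13.19, 13.35 and 12.97 in wild type and 12.88, 12.90 and 12.76 in the mutant, with separate groups and a difference of -0.32 ± 0.12 (adjusted p = 0.121), and it had a pass with the block (adjusted p = 0.0248). Its partner NOP56 read 12.27, 12.30 and 12.31 against 12.31, 12.50 and 12.08, a difference of 0.01 ± 0.12. The methyltransferase NOP1 lay between them at -0.17 ± 0.12. NOP10, a core protein of the H/ACA snoRNPs that guide pseudouridylation, differed by -0.07 ± 0.16. The list of 4 other snoRNP core genes held none that passed, with differences from -0.17 to -0.14.

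The replicates of a number deviated together in these genes, as they did over all genes, though there less clearly for replicate 3. Of the 56 genes, 33 were highest on replicate 2 among the wild type arrays and 31 among the deletion arrays, and 35 and 26 were lowest on replicate 1. The shares of all genes for these counts were not computed. The median deviation from the strain mean was -0.08, 0.08 and 0.01 in wild type replicates 1, 2 and 3. In the deletion strain it was -0.04, 0.08 and -0.05. Over all genes it was at most 0.02 in size, where quantile normalisation holds it near 0 by construction. Deviations of same-number arrays correlated at 0.83, 0.54 and 0.51 over the 56 genes and at 0.67, 0.65 and 0.29 over all genes. Between arrays of different numbers the correlations ran from -0.64 to 0.01 over the 56 genes. Over all genes they ran from -0.63 to 0.23, the highest being near the 0.29 of replicate 3. Taken within the 3 same-number pairs, the median difference was -0.19, -0.21 and -0.28, against -0.04, -0.05 and -0.03 for all genes. In 35 of the 56 genes the deletion array was the lower one in every pair, 62.5% against 35.2% of all genes, and in 0 it was the higher one in every pair, against 25.4%.

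**Figure D3:**
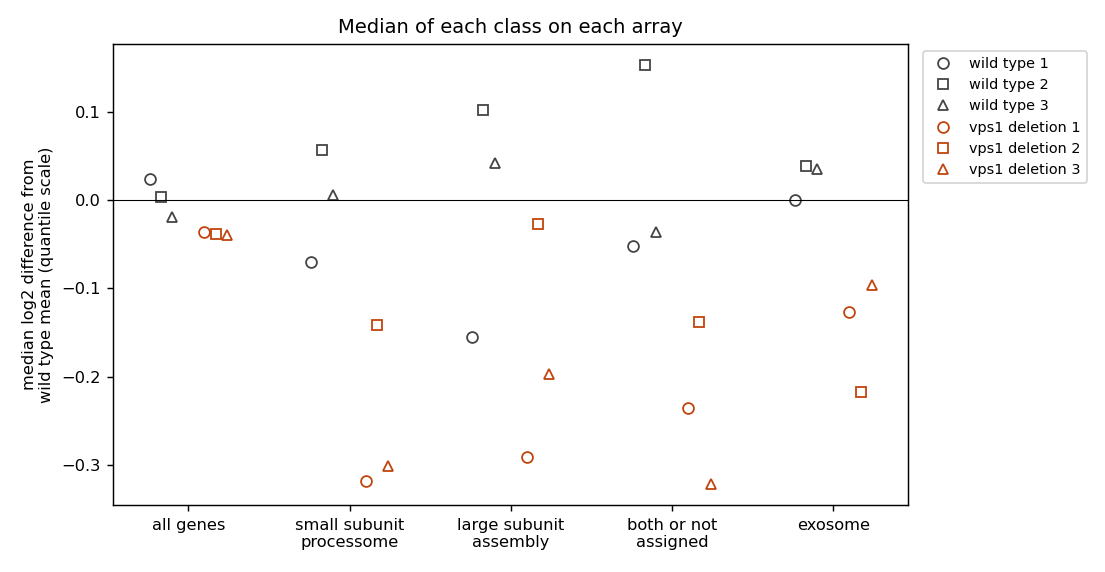
Median log2 difference from the wild type mean of each gene (quantile scale) on each of the 6 arrays, for all genes and the 4 classes. Replicate 2 is the highest wild type array in every class of assembly genes, and on the deletion arrays it is the highest in each class but the exosome; as deposited, all medians of the deletion strain over the classes lie above wild type, from 0.31 to 0.42.

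Signals of ribosomal RNA itself moved with the replicate number too. The array carries 17 control probe sets for yeast ribosomal RNA, an RNA without a long poly(A) tail that the labelling from the 3′ end is not made to measure. In the fit over all probe sets 0 of the 17 passed, where 4.04% of all probe sets were lower and 4.38% higher. At an unadjusted limma p under 0.05, 4 of the 17 were lower, where 15.5% of all genes were. With the block 4 fell, where 16.4% of all genes did. These last 2 shares were not computed over all probe sets. The 5.8S probe set read 12.47, 13.13 and 12.44 in wild type and 10.95, 12.40 and 10.62 without VPS1, which gives a difference of -1.36 ± 0.40 (adjusted p = 0.0725). Replicate 2 was the highest wild type array for 13 of the 17 and the highest deletion array for all 17. The part of this signal in the differences of the assembly genes was not tested.

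The other genes of the pathway lay at similar values. In the list of other small subunit factors 7 of 40 fell and none rose, 17.5% falling against 6.28% of all genes, with a median of -0.23. With the block 15 fell, 37.5% against 16.4%. RIO1, a kinase of late small subunit maturation, fell by 0.72 ± 0.13 (adjusted p = 0.0117), ECM16, the helicase that displaces U3, fell by 0.61 ± 0.11 (adjusted p = 0.0125), and FAF1 fell by 0.46 ± 0.10 (adjusted p = 0.0227). In the list of other large subunit factors 2 of 55 fell and none rose, 3.64% and so below the 6.28% of all genes, with a median of -0.18. With the block 14 fell, 25.5% against 16.4%. YVH1, a phosphatase that acts in the release of Mrt4, fell by 0.66 ± 0.10 (adjusted p = 0.00541), and the export factor ARX1 fell by 0.43 ± 0.09 (adjusted p = 0.0205), while RRS1 lay at -0.43 ± 0.12 (adjusted p = 0.0593) and passed with the block (adjusted p = 0.0119). Of 16 genes of RNA polymerase I and its factors 3 fell and none rose, 18.8%, and 5 fell with the block, 31.2%, with a median of -0.15. The 3 were the initiation factors RRN7 and RRN5, which fell by 0.38 ± 0.08 and fell by 0.42 ± 0.11, and the polymerase subunit RPA43, which fell by 0.43 ± 0.11 (adjusted p between 0.0262 and 0.0487). Over all 139 listed genes 14 fell and 1 rose, 10.1% falling against 6.28% of all genes, and 41 fell and 1 rose with the block, 29.5% against 16.4%. The count of 15 of the 139, fallen and risen together, was 2 to 5 without wild type replicate 2 or vps1 deletion replicate 1 or 3. In these 3 fits 2.37%, 2.39% and 2.2% of all genes fell. The count was 8 without vps1 deletion replicate 2, where 3.29% of all genes fell. These shares are of falling genes alone, while each of the counts includes the regulator CRF1, which rose. The share of the 139 that fell in these fits is not given here. YVH1 passed without each of the 6 arrays in turn. RIO1 missed the threshold without vps1 deletion replicate 1 or 3 (adjusted p = 0.0518 and 0.0569), and ECM16 without wild type replicate 2 or vps1 deletion replicate 3 (adjusted p = 0.0524 and 0.0559). Among the same fits FAF1 and RRN7 passed only without wild type replicate 1, RRN5 and RPA43 only without wild type replicate 3, and ARX1 only without wild type replicate 1 or vps1 deletion replicate 2. As deposited, RIO1, ECM16 and YVH1 lay below wild type, at -0.17, -0.06 and -0.12, and the other genes named here lay above it.

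**Figure D4:**
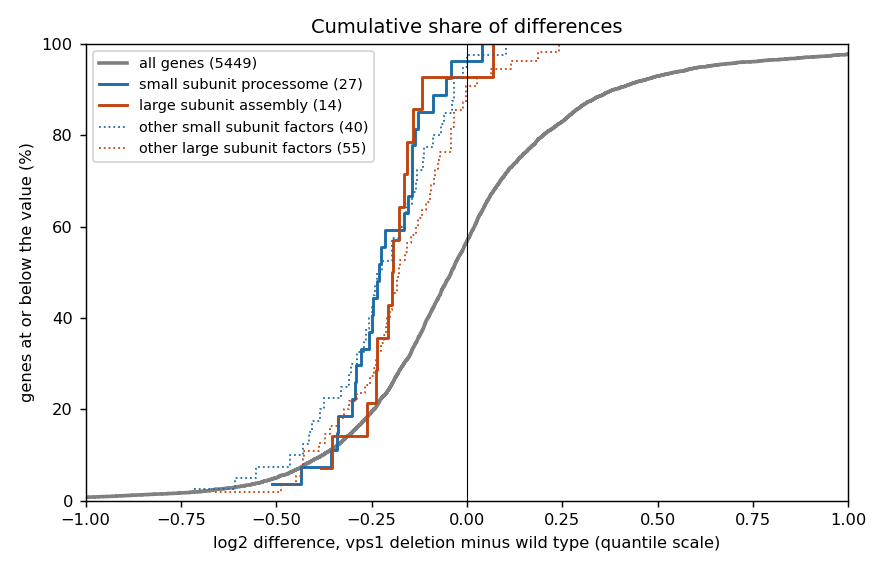
Cumulative share (%) of genes at or below a log2 difference (quantile scale) for all 5449 genes, the 27 small and 14 large subunit genes (solid) and the lists of 40 and 55 other factors (dotted). The curves of assembly genes lie left of that of all genes through the middle of the range, with medians from -0.23 to -0.18 against -0.04, and lack its long tails; as deposited, these medians lie between 0.31 and 0.36, against 0.51 for all genes.

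Of the 13 regulators that were listed, 1 rose and 1 fell, 7.69% falling against 6.28% of all genes, where 6.77% of all genes rose. With the block 3 fell, 23.1% against 16.4%. The list was not limited to regulators of the assembly genes, and which of the 13 act on those genes was not tested. CRF1, a corepressor of ribosomal protein genes, read 4.17, 4.26 and 4.69 in wild type and 5.47, 5.58 and 5.62 in the deletion strain, low levels but above the background of at most 3.59. CRF1 rose by 1.18 ± 0.14 (adjusted p = 0.00229), with no overlap, lay 1.77 above wild type as deposited and passed without each of the 6 arrays in turn. SCH9, the kinase through which nutrient signalling promotes ribosome synthesis, read 10.09, 9.83 and 9.84 against 9.48, 9.41 and 9.30 and fell by 0.52 ± 0.11 (adjusted p = 0.0205), though as deposited it lay 0.02 above wild type and it did not pass without vps1 deletion replicate 1, 2 or 3 (adjusted p = 0.0550, 0.0576 and 0.0906). The repressor DOT6 and the general regulator RAP1 lay at -0.51 ± 0.16 and -0.32 ± 0.11 and passed with the block (adjusted p = 0.00567 and 0.0188). The activator SFP1 (-0.06 ± 0.09), the repressors STB3 (-0.21 ± 0.09) and TOD6 (0.02 ± 0.11), the kinases TOR1 (0.05 ± 0.11) and TOR2 (-0.05 ± 0.09), KOG1 (0.17 ± 0.09), FHL1 (-0.13 ± 0.10), IFH1 (-0.06 ± 0.12) and MAF1 (0.02 ± 0.11) did not pass in either fit.

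Position in the genome gave 1 pair of neighbours among the 56 genes. NOC4 and RRP15 lie next to each other, and NOC4 fell by 0.34 ± 0.09 while RRP15, a large subunit factor, lay at -0.14 ± 0.15. NOC3 neighbours CMS1 of the small subunit list, which lay at -0.12 ± 0.10. UTP9, at 0.04 ± 0.22, neighbours the large subunit gene RIX1, at -0.34 ± 0.14, which passed with the block alone (adjusted p = 0.0254). Neither RRP3 and its neighbour SSF1 nor UTP13 and its neighbours RSA3 and IFH1 passed in either fit. All 56 genes were above background on every array, with means between 9.23 and 13.2. The 18 probe sets whose lower-case names fit the same pattern but are absent from the yeast gene table were below background on every array, with means of at most 3.01. They are themselves among the probe sets that set this background.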

How the data were processed

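Per the labels' protocols, column-purified total RNA was converted to biotinylated cRNA by a 3′ in vitro transcription kit and hybridised to 6 arrays. The deposited values are log2 signals of single probe sets. GCOS, RMA and limma appear in the submitters' processing notes, while the version, role and order of each is not given in the sources used here. Of 10928 probe sets, 7244 have 1 gene symbol; 5498 matched a gene of the yeast table (S288C R64) and 1746 names were absent from it, which served as background (95th percentile per array, 3.53 to 3.59). The probe set with the highest mean stood for a gene, which left 5449 genes; each of the 56 genes had 1 probe set. All probe sets were quantile normalised over the 6 arrays, and vps1 deletion was compared with wild type by limma 3.58.1 in R 4.3.3 (lmFit, eBayes, 2-sided), Benjamini-Hochberg adjusted over all genes. The fit was tested on simulated data with noise independent between arrays, which leaves out the deviations that same-number arrays share. Arrays have no read depth, so their number limits the precision.

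The genes, the 6 lists of pathway genes (141 names, 139 measured) and the particle classes were chosen with earlier results of these data known, and lists are described by counts and medians with no test. Genes named are those that passed with or without the block, the 3 with the smallest p and both extremes in each class, the regulators, VPS1 and up to 3 with the smallest p in each other list; further ones were chosen after their values were seen. The labels share replicate numbers between strains. Deviations from the strain means correlated over all genes at 0.67, 0.65 and 0.29 between same-number arrays. Between arrays of different numbers the correlations ran from -0.63 to 0.23. The highest of these, of wild type replicate 3 with deletion replicate 2, was near the 0.29 of replicate 3. From these same data the numbers were taken to pair the samples, and values with the number as a block stand beside the results they change.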

Additional observations from a re-analysis of the deposited data

How the results depend on the processing

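Fits on values as deposited, on median-centred arrays, on gene probe sets alone, with an intensity trend, without dim genes, with mean probe sets, with replicate numbers as a block and without each array were compared with the quantile scale. As deposited 4194 genes passed, 26 of the 56 genes (all higher), 81 of the listed genes and 7 of the ribosomal RNA probe sets, and the medians were 0.31 (small subunit), 0.34 (large subunit), 0.42 (exosome) and 0.33 (both particles); a common shift of the arrays is kept there by construction. There UTP30, NOP13, UTP8, NOC3, UTP18 and NOC4 lay at 0.030, 0.033, 0.11, 0.16, 0.20 and 0.20, RRP12, RRP45, UTP23, RRP46, NOP58, UTP10, UTP20, NOP2, RRP9, UTP7, UTP6, RRP8 and NOP8 at 0.11, 0.17, 0.18, 0.20, 0.23, 0.25, 0.25, 0.26, 0.26, 0.28, 0.29, 0.31 and 0.34, and PAP2, FAF1, ARX1, RRS1, RPA43, RRN5 and RRN7 at 0.046, 0.078, 0.11, 0.12, 0.12, 0.18 and 0.18. Of the regulators SCH9, DOT6, RAP1, STB3, FHL1, IFH1, SFP1 and TOR2 lay at 0.020, 0.042, 0.22, 0.35, 0.43, 0.48, 0.48 and 0.48. Of the 7 settings that keep all arrays, RRP6, UTP30, NOP13, UTP8 and NOC3 passed in 6, all but the deposited values, NOC4 in 5 and UTP18 in 3. With the block 1676 genes passed, 18 of the 56, 42 of the listed genes and 4 ribosomal RNA probe sets. On median-centred arrays NOP56 turned to -0.012. With the box C/D core, RRP5, RRP12 and RRP14 counted with the small subunit and NOP13 with the large, the class of both particles held NOP10 alone, at -0.073.

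Without single arrays the count of all genes ranged from 315 to 791, of the 56 from 1 to 8, of listed genes from 2 to 16 and of ribosomal RNA probe sets from 0 to 6. The medians ranged from -0.28 to -0.18 (small), from -0.29 to -0.13 (large), from -0.18 to -0.074 (exosome) and from -0.30 to -0.14 (both). The small minus large difference ranged from -0.047 to 0.010. Genes near 0 took both signs: RRP40 from -0.028 to 0.030, NOP53 from -0.18 to 0.24, NOP56 from -0.094 to 0.12, UTP9 from -0.17 to 0.21, TOR1 from -0.032 to 0.10, TOD6 from -0.035 to 0.095, MAF1 from -0.029 to 0.091 and IFH1 from -0.15 to 0.018. The cause of these changes was not tested.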
